A study of Drosophila melanogaster with 24 samples.

Results

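CLAMP and Su(Hw) binding was compared peak by peak in mock Kc167 cells, a line derived from Drosophila melanogaster embryos. The members were the ChIP-seq peaks of both proteins on arms X, 2L, 2R, 3L, 3R and 4. There were 3861 CLAMP peaks and 3687 Su(Hw) peaks, 7548 of the 25738 peaks that the 6 lists of the series hold on these arms. A peak counted as shared when it had at least 1 base in common with a peak of the other protein. This gave 3 classes, which are shared peaks, CLAMP without Su(Hw) and Su(Hw) without CLAMP.

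All libraries used for the main comparison came from cells labelled mock; the labels do not say what a mock culture received. CLAMP was precipitated with the rabbit antibody that the labels call clamp-abcam (the second CLAMP antibody below), and Su(Hw) with a guinea pig serum. Each protein had 2 ChIP libraries, numbered 31 and 32 for CLAMP and 2 and 6 for Su(Hw), and the authors pooled them into 1 peak list. There is therefore no replicate error and no test between the lists, and the intervals given are 95% Wilson intervals for shares and order-statistic intervals for medians, which cover counting error only. Read depth is unknown, so a missing peak means that none passed the authors' threshold. Lists of CP190, of Mod(mdg4) and of a first CLAMP antibody from mock cells, and of CLAMP (second antibody) 6 days after transfection with 5 µg of double-stranded RNA (dsRNA) against Clamp, served for comparison. On the 6 arms these lists held 9435, 1732, 5370 and 1653 peaks in that order. Overlap shares, distances and summit counts depend on list size, so differences between lists are not differences of antibody alone. All lists come from 1 cell line.

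CLAMP is a zinc-finger protein that binds GA-rich repeats. It is best known for bringing the male-specific dosage compensation complex to the X chromosome, and it also binds many autosomal sites. Su(Hw) is a zinc-finger protein with its own DNA sequence, first known from the gypsy retrotransposon, where it assembles an insulator with CP190 and Mod(mdg4). Insulators limit contacts between enhancers and promoters. At many other sites Su(Hw) is known as a repressor, among others of neuronal genes outside the nervous system.

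CLAMP and Su(Hw) lay mostly apart. A Su(Hw) peak overlapped 259 CLAMP peaks, 6.71% of the list (5.96 to 7.54), and a CLAMP peak overlapped 268 Su(Hw) peaks, 7.27% (6.47 to 8.15). The remaining 3602 CLAMP and 3419 Su(Hw) peaks had no partner. The overlaps formed 269 pairs, of which 251 were 1 to 1. With the 50% strongest peaks of each list by fold enrichment, 3.78% of CLAMP and 4.01% of Su(Hw) peaks were shared, and with summits within 250 bases as the rule, 4.17% and 4.37%. The rest below uses the overlap of 1 base.

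Of the 268 shared Su(Hw) peaks, 211 (78.7%, 73.4 to 83.2) also overlapped a peak of the first CLAMP antibody. A further 144 Su(Hw) peaks overlapped the first antibody alone, and 72 of these lay in the centromere-proximal parts of the arms. Either antibody was present at 412 Su(Hw) peaks (11.2%, 10.2 to 12.2), and 3275 had neither. The 57 pairs without the first antibody at the Su(Hw) peak had a median summit distance of 281 bases (188 to 391), against 132.5 bases (113 to 167) in the 212 pairs with it.

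Where the proteins shared a peak, their summits were often close together but seldom at the same base. The median summit distance was 162 bases (130 to 206), with quartiles of 56 and 411 bases. With the first CLAMP antibody it was 104 bases, and with summits within 250 bases as the rule it was 71 bases by construction. Summits lay under 50 bases apart in 56 pairs (20.8%) and 1000 bases or more apart in 21 pairs (7.81%). The CLAMP summit fell inside the Su(Hw) peak in 173 pairs (64.3%), and the Su(Hw) summit inside the CLAMP peak in 227 (84.4%). In 32 pairs (11.9%) neither summit lay in the partner's peak, so that the flanks alone overlapped.

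Counting every pair of summits on an arm, 215 CLAMP and Su(Hw) summits lay under 500 bases apart and 91 lay 500 to 999 bases apart. In the next 18 rings of 500 bases, out to 10 kb, the count stayed between 74 and 115, with a median of 94.5. The innermost ring was thus 2.28 times that median, and the second ring already lay within the range of the outer ones. With the first CLAMP antibody the innermost ring held 302 pairs, 2.33 times its outer median of 129.5. For CP190 and Su(Hw), partners in the gypsy complex, it held 2617 pairs, 9.43 times the outer median of 277.5. No test was made of these ratios.

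**Figure D1:**
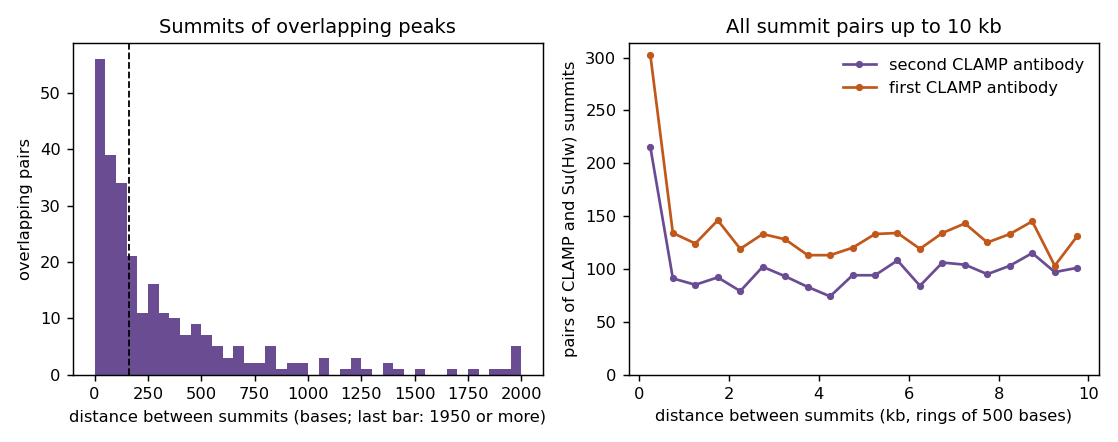
Left, number of overlapping CLAMP and Su(Hw) pairs by distance between their summits in bins of 50 bases; the dashed line is the median of 162 bases. Right, all pairs of CLAMP and Su(Hw) summits in rings of 500 bases for each CLAMP antibody: the innermost ring stands above a flat level (215 against 74 to 115 for the second antibody).

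CLAMP peaks were wider than Su(Hw) peaks. The median width was 785 bases (769 to 803) for CLAMP and 492 bases (485 to 500) for Su(Hw), and the narrowest peaks had 368 and 242 bases. Shared peaks had about the width of the rest of their list. Shared CLAMP peaks had a median of 768 bases (712 to 810) against 785 (770 to 805) for CLAMP without Su(Hw), and shared Su(Hw) peaks 511.5 (480 to 538) against 491 (484 to 499). In the typical pair 402 bases were shared, 92.2% of the Su(Hw) peak and 53.8% of the CLAMP peak. The CLAMP peak covered the whole Su(Hw) peak in 116 pairs (43.1%), and the reverse held in 19 pairs (7.06%).

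Sharing did not climb steadily with width. In 4 groups of equal size by CLAMP width, from narrow to wide, 6.42%, 7.15%, 6.32% and 6.94% of peaks were shared. In 4 such groups by Su(Hw) width the shares were 7.27%, 6.07%, 7.05% and 8.68%. The interval of each group overlapped that of every other group of its list.

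Fold enrichment, a value the authors give for each peak as ChIP over local background, was similar in shared and unshared peaks. The median for Su(Hw) was 7.16 (6.46 to 8.23) in shared peaks and 7.14 (6.89 to 7.35) in Su(Hw) without CLAMP. For CLAMP it was 3.99 (3.44 to 4.55) and 3.61 (3.50 to 3.72), with overlapping intervals. Within pairs the folds of the proteins did not go together, with a Spearman rho of -0.0357 over 269 pairs, which share both pooled lists. Both folds were at or above the median of their list in 74 pairs (27.5%) and both below it in 58 (21.6%). In 75 pairs CLAMP alone was at or above its median, and in 62 pairs Su(Hw) alone.

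**Figure D2:**
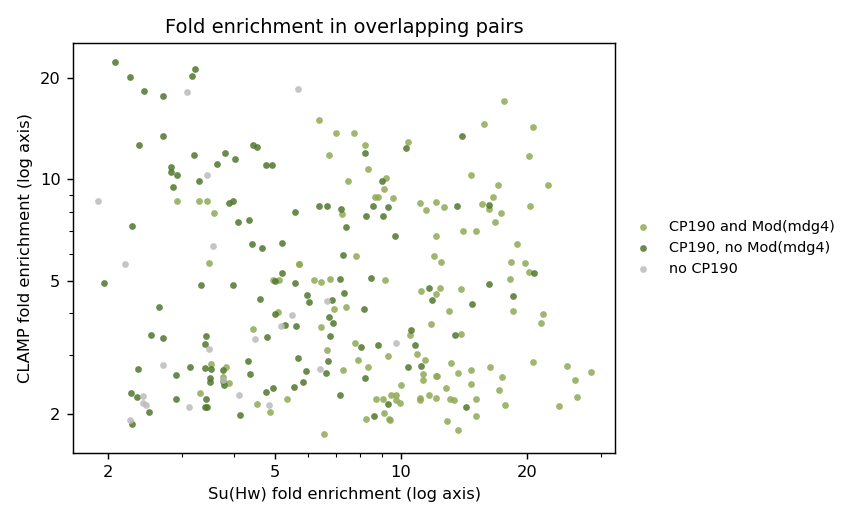
CLAMP fold enrichment against Su(Hw) fold enrichment in the 269 overlapping pairs, both on log axes, each point 1 pair coloured by the partners at its Su(Hw) peak. The points fill the plane with no trend (rho -0.0357), and pairs without Mod(mdg4) are frequent at low Su(Hw) fold.

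The 12 pairs with the best joint rank, the worse of the ranks by fold in the lists, had CLAMP folds of 8.35 to 17.1, and those described here had Su(Hw) folds of 14.7 to 22.4. All 12 also overlapped CP190 and the first CLAMP antibody. The best pair lay on 2R between sm, which encodes an RNA-binding protein, and lncRNA:CR44503 (CLAMP peak from 19630383 to 19633553, dm6). Its CLAMP fold was 14.3 and its Su(Hw) fold 20.7, but its summits were 1089 bases apart within a CLAMP peak of 3171 bases. The next lay on X at CrebB, which encodes a transcription factor of the CREB family (18365455 to 18368997), with folds of 17.1 and 17.6 and summits 66 bases apart. At shep, a gene for an RNA-binding protein known to act on gypsy insulators, the pair lay outside the gene, more than 10 kb from its end, with folds of 14.6 and 15.8 and summits 105 bases apart.

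Some of the other strong pairs lay inside genes of development or of the nervous system. How common such genes are over all pairs was not counted. Inside Ten-m, which encodes a teneurin, a cell-surface protein of axon guidance, the CLAMP fold was 11.7 and the Su(Hw) fold 20.2. Inside pnr, which encodes a GATA factor, the folds were 10.3 and 14.7, with summits 15 bases apart. Inside eag, a potassium channel gene, they were 9.61 and 17.1, with summits 1 base apart. The su(Hw) gene carried a pair inside it on 3R, with a CLAMP fold of 9.59, a Su(Hw) fold of 22.4 and summits 118 bases apart. At boi, which encodes a Hedgehog co-receptor, the folds were 8.35 and 20.3, with summits 56 bases apart. Others of the 12 lay at CG32204, lncRNA:CR45054 and CG43740.

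In some pairs a strong peak of one protein met a weak peak of the other. Each list was ranked by fold and divided into 4 groups of equal size. Among the 29 pairs with CLAMP in its strongest group and Su(Hw) in its weakest, CP190 was present in 26 and Mod(mdg4) in 5, of which 4 lay under 1 broad CLAMP peak in Myo81F. Among the 17 pairs with the reverse combination, CP190 was present in all 17 and Mod(mdg4) in 16. Over all pairs, Mod(mdg4) lay at 84.8% of those in the strongest group of Su(Hw), then at 56.1%, 38.6% and 22.4% in the weaker groups. No test was made between these pairs. These groups of pairs, and the genes named for them here, were chosen after their values were seen.

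The strong CLAMP pairs with weak Su(Hw) lay at genes of many kinds, and those with the largest CLAMP folds are given here. Near an end of btd, which encodes a zinc-finger factor of head development, the CLAMP fold was 22.3 and the Su(Hw) fold 2.08, with summits 19 bases apart. At eyg, a Pax gene, the folds were 20.1 and 2.26, with summits 31 bases apart. Inside bi, a T-box gene, they were 20.3 and 3.18, and at disco-r, a zinc-finger gene, 18.3 and 2.44. At ph-d, a Polycomb group gene, they were 18.2 and 3.09, and CP190 and Mod(mdg4) were absent. A Su(Hw) fold near 2 is close to the lowest of the list, 1.89.

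In the reverse combination, near Sk1, which encodes a sphingosine kinase, and inside its neighbour Evi5, the Su(Hw) fold was 26.3 and the CLAMP fold 2.25. At RhoGEF3 they were 23.9 and 2.12, and at dock, which encodes an adaptor protein of axon guidance, 12.9 and 1.91 with summits 2 bases apart. Lim1, a LIM homeobox gene on X, had pairs of unlike balance. A pair 136 bases from its end had a CLAMP fold of 21.3 and a Su(Hw) fold of 3.23, and a pair 19908 bases from its end had 5.25 and 20.8.

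A few broad CLAMP peaks covered several Su(Hw) peaks. There were 6 such CLAMP peaks, with at most 4 Su(Hw) peaks each, and 1 Su(Hw) peak with 2 CLAMP peaks, at Gga on X. The peaks with 4 lay in centromere-proximal sequence, inside Snap25 on 3L (24169053 to 24173702) and inside Myo81F on 3R (2085023 to 2089425). These held 4 of the 5 largest summit distances, 2524 to 3824 bases.

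Peaks without a partner were usually far from the other protein. The median distance, from edge to edge, was 16740 bases (16008 to 17598) from CLAMP without Su(Hw) to the nearest Su(Hw) peak. From Su(Hw) without CLAMP to the nearest CLAMP peak it was 20592 bases (19421 to 21719). With the first CLAMP antibody these medians were 18023 and 18088.5 bases. Over all peaks, overlapping ones included, the medians were 15142 bases from CLAMP and 17766 from Su(Hw), and with the 50% strongest peaks of each list they were 28084 and 32123. Of all CLAMP peaks 11.1% lay more than 50 kb from Su(Hw), and of all Su(Hw) peaks 18.7% lay more than 50 kb from CLAMP.

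Near misses were few. Only 143 CLAMP peaks without Su(Hw) (3.97%) had a Su(Hw) peak within 1000 bases, 73 of them at up to 500 bases and 70 at 500 to 1000 bases, about equal counts. From the side of Su(Hw) there were 126 (3.69%). Of the 143, 51 (35.7%) lay with their Su(Hw) neighbour under 1 CP190 peak that overlapped both, which held for 247 of the 269 overlapping pairs (91.8%). Separate peaks need a CP190 peak that spans the gap and overlapping ones do not, so these shares are not directly comparable. The 5 smallest gaps were 11, 18, 36, 52 and 69 bases, at Dp1 on 2R, inside Myo81F on 3R, at CG33523 on 3L, at VhaAC45 on 2R, and, tied at 69 bases, at jagn on 3R and Pp1-13C on X. Dp1 encodes an RNA-binding protein, VhaAC45 a subunit of the vacuolar proton pump and Pp1-13C a protein phosphatase. Their CLAMP folds lay between 2.12 and 7.27.

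**Figure D3:**
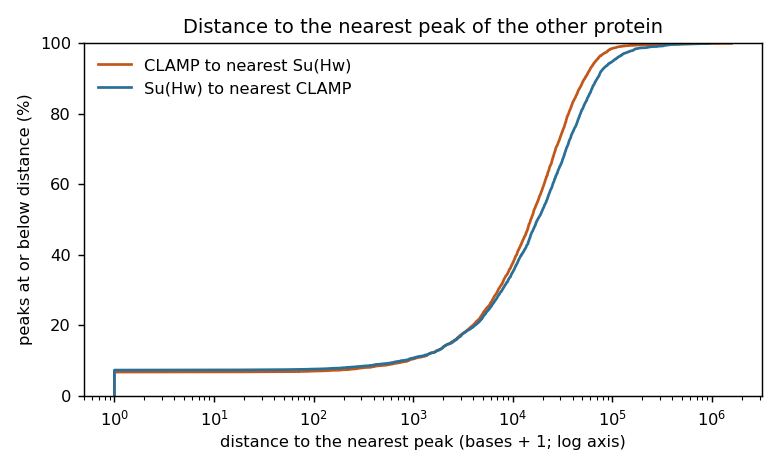
Share of CLAMP peaks (3861) and Su(Hw) peaks (3687) at or below a given distance to the nearest peak of the other protein, on a log axis where overlapping peaks stand at 1. The curves start at 6.71% and 7.27%, reach 10.4% and 10.7% at 1000 bases and climb steeply beyond it.

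The distance varied with chromosome and gene position. For Su(Hw) without CLAMP the median distance to CLAMP was 13734 bases on X (11641 to 15085), against 17587 to 24965 bases on the arms 2L, 2R, 3L and 3R. It was 15306 bases for summits at gene ends, 20074 for summits inside genes and 25488 for those outside genes. For CLAMP without Su(Hw) the order differed, with 18331 bases at gene ends, 15767.5 inside genes and 17917 outside genes. For CLAMP without Su(Hw) the median was 14205 bases on X and 16133 to 19327 on those 4 arms, and with CP190 it was 17244 bases against 16150 without.

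Su(Hw) peaks on X more often had CLAMP than those on the other arms pooled. On X 83 of 740 Su(Hw) peaks had CLAMP, 11.2% (9.14 to 13.7), against 185 of 2947, 6.28% (5.46 to 7.21), on the other arms. X carried 31% (25.7 to 36.7) of shared Su(Hw) peaks, 19.2% (17.9 to 20.6) of Su(Hw) without CLAMP and 27.2% (25.8 to 28.7) of CLAMP without Su(Hw). With the first antibody the shares were closer, 11.2% of Su(Hw) peaks on X and 9.23% (8.24 to 10.3) elsewhere, and 3R stood above X at 12.7%. Kc cells are of female type, in which the male-specific complex is known not to assemble.

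CLAMP was also denser on X, with 45.2 peaks per Mb against 23.5 to 27.8 on 2L, 2R, 3L and 3R, while Su(Hw) had 31.4 on X and 24.1 to 31.3 on those arms. For every 10 CLAMP peaks per Mb, 2.48% of Su(Hw) peaks on X had CLAMP, within the range of 2.14% to 2.95% on the 4 autosomal arms. Seen from CLAMP, 7.80% (6.34 to 9.57) of peaks on X had Su(Hw), against 5.48% on 3L to 6.84% on 2R, with overlapping intervals. Of Su(Hw) peaks with CP190, 13.5% had CLAMP on X and 6.71% to 9.65% on the 4 autosomal arms. Arm 4 held 13 CLAMP and 5 Su(Hw) peaks and a lone shared pair, at Asator, a kinase gene, with a CLAMP fold of 2.99 and a Su(Hw) fold of 9.34.

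**Figure D4:**
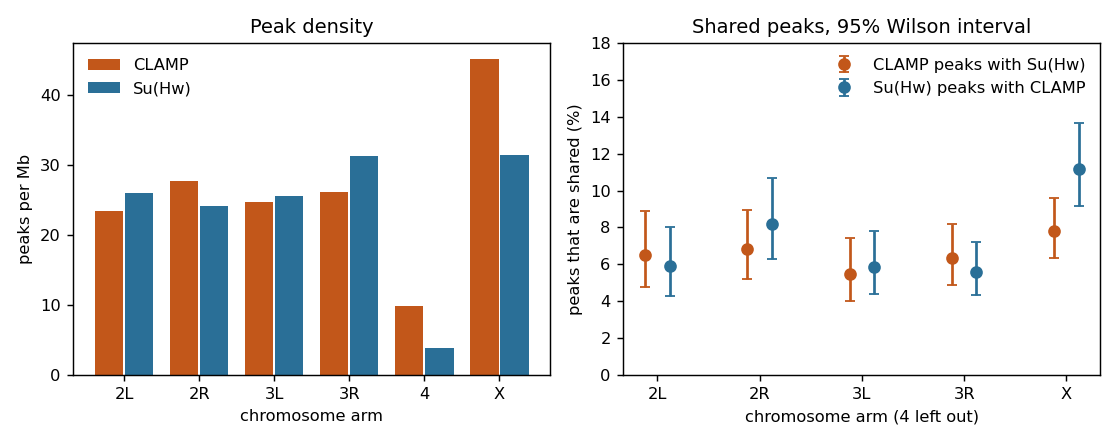
Left, CLAMP and Su(Hw) peaks per Mb on each chromosome arm. Right, the share of peaks of each list that overlap the other list, with 95% Wilson intervals; arm 4 (5 Su(Hw) peaks) is left out. Su(Hw) on X reaches 11.2%, while the CLAMP shares lie between 5.48% and 7.80%.

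The centromere-proximal parts of the arms held few peaks and a larger shared part. There 20 of 103 CLAMP peaks (19.4%, 12.9 to 28.1) and 27 of 142 Su(Hw) peaks (19.0%, 13.4 to 26.3) were shared. On the rest of the arms the shares were 6.36% (5.62 to 7.19) and 6.80% (6.02 to 7.67).

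In their share at gene ends, shared peaks lay between the unshared peaks of CLAMP and of Su(Hw). A summit within 500 bases of either end of a gene was found for 37.2% (35.6 to 38.8) of CLAMP without Su(Hw), 29.3% (24.1 to 35.2) of shared CLAMP peaks, 28.0% (23 to 33.6) of shared Su(Hw) peaks and 17.3% (16.1 to 18.6) of Su(Hw) without CLAMP. Summits outside genes and away from their ends made up 9.74%, 19.3%, 19.8% and 27.0% in the same order. The rest lay inside genes, 53.1%, 51.4%, 52.2% and 55.7%, with the shared classes below both others but overlapping intervals. Counting every summit in a gene, at any distance from its ends, the shares were 77%, 62.9%, 63.1% and 63.6%. The gene table gives no strand, so starts and ends of genes are not told apart. With gene ends taken as 200 bases the shares were 19.2%, 15.4%, 14.6% and 9.15% in the same order, and with 1000 bases 48.2%, 42.5%, 38.8% and 26.9%. At both distances the intervals of shared CLAMP peaks and of CLAMP without Su(Hw) overlapped. At 500 bases they also overlapped without the centromere-proximal parts, with 31.4% (25.8 to 37.5) and 37.2% (35.6 to 38.8), and with the 50% strongest peaks. They stayed apart with the first CLAMP antibody and with summits within 250 bases as the rule, among others. The differences between classes were not tested.

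Read the other way, Su(Hw) peaks at gene ends were shared in 11.3% of cases (9.08 to 13.9), those inside genes in 6.85% (5.83 to 8.02) and those outside genes in 5.43% (4.18 to 7.03). For CLAMP the order was opposite, with 5.37% (4.31 to 6.67) at gene ends, 6.50% (5.51 to 7.66) inside genes and 12.5% (9.59 to 16.1) outside genes. CP190, which marks many promoters, lay at 1140 of the 1415 CLAMP peaks at gene ends, where CLAMP peaks were least often shared. Among CLAMP peaks with CP190, 15.3% (13.3 to 17.5) were shared away from gene ends and 6.40% (5.12 to 7.98) at gene ends. Among CLAMP peaks without CP190 the shares were 1.18% and 1.09%. For Su(Hw) with CP190 the shares were 11.9% (9.59 to 14.8) at gene ends and 7.91% (6.86 to 9.12) elsewhere. The part of CP190 in the differences was not tested.

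CP190 lay at 92.7% (88.8 to 95.3) of shared CLAMP peaks and 55.3% (53.7 to 56.9) of CLAMP without Su(Hw). The latter share was 30.5% with summits within 250 bases as the rule for CP190 too, and 30.2% with the 50% strongest peaks of each list. CP190 lay at 91.8% (87.9 to 94.5) of shared Su(Hw) peaks and 74.8% (73.3 to 76.2) of Su(Hw) without CLAMP. Mod(mdg4) was nearly missing from CLAMP without Su(Hw), at 11 of 3602 peaks (0.305%, 0.171 to 0.546), and lay at 139 of all 3861 CLAMP peaks. Its list is short, with 1732 peaks against 9435 for CP190, and 1307 Su(Hw) peaks overlapped it. The class leaves out Su(Hw) sites by definition, so its low share cannot be read as a property of CLAMP sites alone. Mod(mdg4) lay at 51.1% (45.2 to 57.0) of shared Su(Hw) peaks and at 34.2% (32.6 to 35.8) of Su(Hw) without CLAMP. Su(Hw) peaks with CP190 were also wider than those without (median 526 and 386 bases). The difference in CP190 between shared and unshared Su(Hw) peaks was not seen when the first CLAMP antibody defined the sharing, with 74.1% of shared and 76.2% of unshared Su(Hw) peaks. Leaving out the centromere-proximal parts with the second antibody gave 95% and 76.5%. The first-antibody shares were not recalculated without these parts, which held 72 of the 144 Su(Hw) peaks with the first antibody alone. Whether the difference depends on the antibody was therefore not tested.

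**Figure D5:**
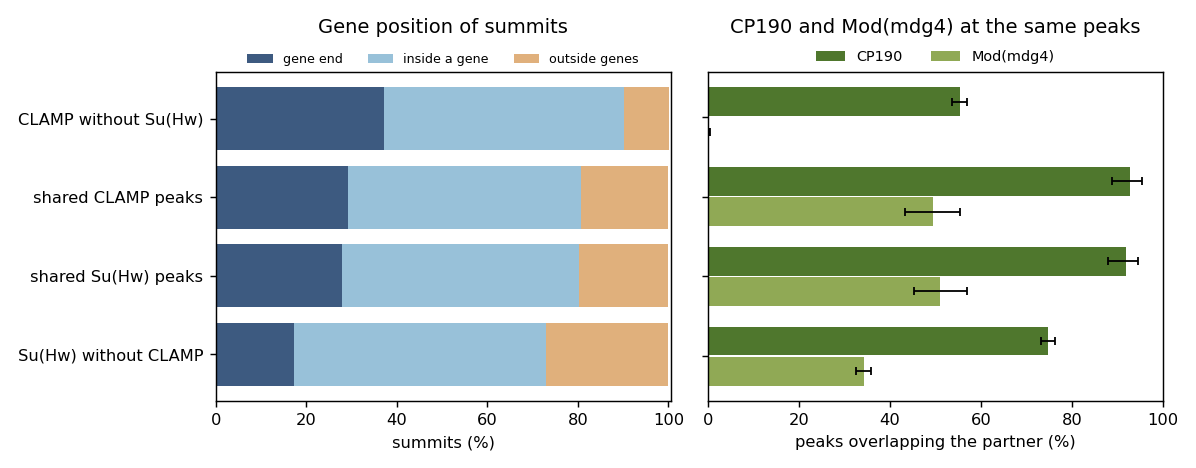
Left, gene position of summits in each class, as stacked shares: within 500 bases of a gene end, inside a gene, or outside genes. Right, share of each class that overlaps CP190 or Mod(mdg4), with 95% Wilson intervals. Gene ends fall from 37.2% to 17.3% down the classes. Mod(mdg4) is near 0 (0.305%) at CLAMP without Su(Hw), a class that leaves out Su(Hw) sites by definition.

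In 64 pairs (23.8%) both summits lay within 500 bases of a gene end, in 12 pairs the CLAMP summit alone and in 11 the Su(Hw) summit alone. The CLAMP summit was the nearer one to a gene end in 140 pairs and the Su(Hw) summit in 127. The genes with both summits at an end and the best joint ranks were CrebB, boi with its neighbour trol, which encodes perlecan, CG12237 with Rcd-1, and Gr97a, a gustatory receptor gene. They were followed by CG34417, CG13321, Gycbeta100B (a guanylate cyclase subunit), tRNA:Leu-CAA-2-3, CG42855, egr, CG43982, Cln7 and Ace. At CG12237 and Rcd-1 the CLAMP fold was 12.9 and the Su(Hw) fold 10.4, with summits 175 bases apart. At egr, which encodes the fly's tumour necrosis factor ligand, they were 7.75 and 8.26, with summits 39 bases apart. At Ace, the acetylcholinesterase gene, they were 3.26 and 7.78.

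The strongest unshared peaks had folds of 25.7 to 28.2 for CLAMP and 26.9 to 29.9 for Su(Hw). Those of CLAMP included peaks by the T-box gene mid (28.2-fold), by disco (26.5), lncRNA:bxd beside Ubx (26.4) and E5 (25.7), all of which but bxd encode transcription factors. The nearest Su(Hw) peak was 26533 to 62121 bases away from these 4, and the first CLAMP antibody was present at all of them. Those of Su(Hw) lay near BaraA2, an antimicrobial peptide gene (29.9), CG3097 (29.3), the odorant receptor gene Or43a (28.8), Ssk, a septate junction gene (28.2), and CG32170 (26.9). All 5 overlapped CP190 and Mod(mdg4) and none the first CLAMP antibody, with the nearest CLAMP peak 1481 bases away at Ssk and 10093 to 45116 bases away at the others.

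Over all 17684 genes on the arms, 2798 (15.8%) had a CLAMP summit inside them or within 500 bases of an end, and 1740 (9.84%) had a Su(Hw) summit there. Both proteins lay at 658 genes (3.72%), and a shared peak at 252 (1.43%). Of the 658, 218 held a shared peak and 440 held separate peaks of the proteins. Genes with both proteins were long, with a median of 19684.5 bases with a shared peak and 31244 bases without, against 1710 bases for all genes. At gene ends alone, 1913 genes (10.8%) had a CLAMP summit, 827 (4.68%) a Su(Hw) summit and 122 (0.69%) a summit of a shared peak. Both summits lay at the ends of 124 genes (0.701%), in 73 of them with a shared peak and in 51 from separate peaks. Counts below are for summits inside genes or within 500 bases of an end, and long genes have more room for them.

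The list of 47 homeobox, T-box and related genes was made with genes already known as strong CLAMP sites in these data, so its CLAMP count restates that choice. Of the 47, 40 (85.1%, against 15.8% of all genes) had CLAMP and 14 (29.8%, against 9.84%) had Su(Hw). Both lay at 12, beside 3.72% of all genes, and a shared peak at 7 (14.9%, against 1.43%), among them btd, Lim1, bi and disco-r. The median length of this list was 12168 bases.

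All 8 Hox genes, which set segment identity, had CLAMP (against 15.8% of all genes), and 3 had Su(Hw) (37.5%, against 9.84%). A shared peak lay at 0 of the 8, beside 1.43% of all genes, so that absence says little about so short a list. In Ubx the largest folds were 25.4 for CLAMP and 13.6 for Su(Hw), in Antp 11.9 and 21.5, and in pb 17.4 and 4.97. The others had CLAMP alone, with folds of 16 at lab, 13.3 at Dfd, 15.4 at Scr, 18.4 at abd-A and 18.9 at Abd-B. The median length of Hox genes was 30563 bases.

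The neuronal list was made as a known class of Su(Hw)-repressed genes, so its Su(Hw) count is not an independent result. Among its 33 genes, Su(Hw) lay at 23 (69.7%, against 9.84% of all genes) and CLAMP at 11 (33.3%, against 15.8%). Both lay at 9 and a shared peak at 5 (15.2%, against 1.43%), and the median length was 27653 bases. Shared peaks lay, among others, in para and Sh, sodium and potassium channel genes, in Dscam1, a gene for axon recognition, and in Snap25, which encodes a synaptic SNARE protein. In para the largest folds at a shared peak were 2.56 for CLAMP and 8.23 for Su(Hw), while the largest CLAMP fold in the gene was 16.

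Among ecdysone response genes, 15 of 24 had CLAMP (62.5%, against 15.8%) and 9 had Su(Hw) (37.5%, against 9.84%), and all 9 had both. A shared peak lay in 4 of the 24 (16.7%, against 1.43%), br, Eip75B, Hr4 and Eip74EF, which encode transcription factors of the hormone cascade. In Hr4 the pair with a Su(Hw) fold of 13 had a CLAMP fold of 4.06, and another shared CLAMP peak at the gene had 5.61. In Eip75B the largest folds at a shared peak were 2.72 for CLAMP and 14.7 for Su(Hw). None of the 24 had a Su(Hw) summit within 500 bases of an end, and 7 had a CLAMP summit there. The median length of the list was 21190.5 bases.

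Kc167 cells are often likened to hemocytes, the fly's blood cells. Of 24 hemocyte genes 9 had CLAMP (37.5%, against 15.8% of all genes) and 10 had Su(Hw) (41.7%, against 9.84%). The median length of the list was 11641 bases. Both proteins lay at 6, beside 3.72% of all genes, and a shared peak at 4 (16.7%, against 1.43%). These 4 were trol, Ten-m, pnt and ush, of which ush and pnt encode transcription regulators. They are long genes, of 74968, 114820, 55937 and 64341 bases in that order. No CLAMP lay at the listed genes Hml, Pxn, He, NimC1, eater, crq, PPO1, PPO2 and Sr-CI (named after the values were seen). Of these, Hml and Pxn had Su(Hw), with folds of 3.23 and 10.4. In ush a shared pair had folds of 8.55 for CLAMP and 12.1 for Su(Hw), and another had 10.7 and 8.33. In the Notch pathway 10 of 24 genes had CLAMP (41.7%, against 15.8% of all genes) and 2 had Su(Hw) (8.33%, near the 9.84% of all genes). These 2 were mam and kuz (named, like CycE and fzr below, after the values were seen). A shared peak lay at 1 of the 24 (4.17%, against 1.43%), in mam, which encodes a co-activator (CLAMP fold 4.51 and Su(Hw) fold 18.5). The CLAMP folds at nej, dx and N were 21.2, 14.4 and 11.3, without Su(Hw).

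Among 23 heat shock genes, CLAMP lay at 10 (43.5%, against 15.8% of all genes) and Su(Hw) at 0 (against 9.84%). The largest CLAMP folds were 17.4 at lncRNA:Hsromega, 13.2 at Hsp27, 12.1 at Hsp68 and 9.39 at Hsp70Ba, a gene with near-identical copies between which reads could be split. Cell cycle genes had CLAMP at 14 of 33 (42.4%, against 15.8%) and Su(Hw) at 3 (9.09%, near the 9.84% of all genes), E2f1, CycE and fzr, all 3 with separate CLAMP peaks. The largest CLAMP folds there were 22.7 at mts, 13.2 at E2f1, 12.7 at dup and 11 at Cdk4. With median lengths of 2347 and 2955 bases, both lists hold shorter genes than the developmental and neuronal lists.

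Of 23 insulator protein genes, 11 had CLAMP (47.8%, against 15.8%) and 3 had Su(Hw) (13%, near the 9.84% of all genes), all 3 with CLAMP. These were su(Hw) with its shared peak, shep (10.5 for CLAMP and 8.86 for Su(Hw), in separate peaks) and Rm62 (9.28 and 2.80, in separate peaks). CLAMP alone lay at Trl, which encodes the GAGA factor (16.3), mod(mdg4) (15.4), psq (13.8), Topors (10.7), ZIPIC (2.17), pita (2.15) and Chro (2.1), and at Clamp itself (17.7). Of 11 dosage compensation genes, CLAMP lay at 5 (45.5%, against 15.8% of all genes) and Su(Hw) at 1 (9.09%, near the 9.84% of all genes). The gene with both was Sxl, the sex-determination switch gene, with folds of 6.26 and 7.01 in separate peaks. The others with CLAMP were Clamp, the noncoding RNA genes lncRNA:roX1 (7.62) and lncRNA:roX2 (5.40), and JIL-1 (2.85). A shared peak lay at 0 of these 11, beside 1.43% of all genes.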

How the data were processed

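The authors deposited 6 peak lists in the narrowPeak layout, 1 per antibody and treatment. Peak names carry the word pooled, so the 2 ChIP libraries of a group share a list. The submitters' processing notes name MACS2 2.1.0.20150731, Picard, SAMtools 1.2, Bowtie2 2.2.9 and cutadapt 1.8.1, and the build dm6. Neither the options used nor the significance limit for a peak is stated there. The deposited fold enrichment is a ratio at the summit. The deposited -log10 q, a q-value on a log scale, served for a stricter threshold. The deposited score equals 10 times -log10 q rounded down in every row. The summit is deposited as an offset from the peak start.

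Overlap, distances and classes were computed in Python 3.11.15 with pandas 2.3.3 and SciPy 1.17.1, and were checked on simulated lists (planted overlaps found in 20 of 20). Distance runs from edge to edge, with 0 for overlap. Genes came from a RefSeq table of Release 6 plus ISO1 MT, which is the dm6 assembly; it holds no strand or sequence, so no sequences are shown and the planned motif count was not run. A position is named by the gene with the nearest end. Peak densities used the last gene or peak end on an arm for its size. Centromere-proximal means 2L from 22 Mb, 2R to 5.6, 3L from 23, 3R to 4.5 and X from 21 Mb.

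The members and gene lists were chosen with earlier results of these data known. The naming rule took the 12 pairs of best joint rank, the 5 strongest peaks of each unshared class, the 5 smallest gaps, the 5 largest summit distances, arm 4, the up to 15 genes with both summits at an end, the bound insulator, dosage compensation and Hox genes, and up to 4 members of every other list. Alternatives changed the overlap rule, the threshold, the genome part, the CLAMP antibody and the gene-end distance. Some items that the rule names are not reported here. Input libraries entered only through the authors' lists.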

Additional observations from a re-analysis of the deposited data

Results flagged for a closer look

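Overlap between CLAMP and Su(Hw) also appeared on sequences outside the 6 arms, which the comparison did not use. There 33 pairs overlapped, made of 27 of 31 CLAMP peaks (87.1%, 71.1 to 94.9) and 33 of 102 Su(Hw) peaks (32.4%, 24.1 to 41.9). Of these pairs 8 lay on the mitochondrial genome, under 3 CLAMP peaks, and the other 25 had a median summit distance of 11 bases, with 16 under 50 bases. All 31 of these CLAMP peaks overlapped a peak of the first CLAMP antibody and a CLAMP peak after Clamp dsRNA. Mod(mdg4) overlapped 30 of them and CP190 11 (35.5%). Of the 102 Su(Hw) peaks, 92 (90.2%) overlapped the first CLAMP antibody and 93 (91.2%) a CLAMP peak after Clamp dsRNA. The share of 32.4% therefore holds for the second antibody in mock cells only. Mod(mdg4) lay at 81 of the 102 (79.4%) and CP190 at 17 (16.7%).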

How the results depend on the processing

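Of 90 recalculated values 44 stayed within the counting interval of the main value and 46 did not. No paired analysis was possible because each list pools its libraries. Sharing of CLAMP and Su(Hw) peaks was 4.17% and 4.37% with summits within 250 bases, 5.96% and 6.46% with 50% of the shorter peak shared, 5.78% and 5.53% at -log10 q of at least 10, and 3.78% and 4.01% with the 50% strongest peaks; with the first antibody 9.63% of Su(Hw) peaks were shared. The median summit distance was 71 bases with summits within 250 bases, 123.5 with the strongest peaks and 104 with the first antibody. The median distance to the nearest peak of the other list was 18406 bases from CLAMP and 23497.5 from Su(Hw) at the stricter threshold, 28084 and 32123 with the strongest peaks, which are fewer by construction, and 16180.5 and 15149 with the first antibody.

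With the first antibody X held 22.6% of CLAMP without Su(Hw) and 23.4% of shared Su(Hw) peaks. Gene-end shares of CLAMP without Su(Hw) were 35.3% (stricter threshold), 34.9% (strongest), 32.7% (first antibody), and 19.2% and 48.2% at 200 and 1000 bases. For Su(Hw) without CLAMP they were 18.8% and 18.9% (stricter threshold, strongest) and 9.15% and 26.9% at 200 and 1000 bases; for shared CLAMP peaks 22.2%, 23.3%, 15.4% and 42.5% in the same order. CP190 at shared Su(Hw) peaks was 82.6% with summits within 250 bases, 95% without the centromere-proximal parts and 74.1% with the first antibody. At Su(Hw) without CLAMP it was 68.9% (summits within 250 bases), 78.5% (stricter threshold), 66.4% (strongest), 76.5% (without centromere-proximal parts) and 76.2% (first antibody). At CLAMP without Su(Hw) it was 30.5% (summits), 53.2% (50% of the shorter peak), 46.4% (stricter threshold), 30.2% (strongest) and 47.5% (first antibody). Except where the number of peaks shrinks by construction, the cause was not tested.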

Other observations

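Shared CLAMP peaks more often had an overlapping CLAMP peak after Clamp dsRNA at every level of CLAMP strength. With CLAMP peaks in 4 groups of equal size by fold, 11 of 78 peaks with Su(Hw) in the strongest group (14.1%, 8.06 to 23.5) and 54 of 887 without it (6.09%, 4.70 to 7.86) had one. In the 3 weaker groups together the counts were 15 of 181 (8.29%, 5.09 to 13.2) and 14 of 2715 (0.516%, 0.307 to 0.864). Outside the centromere-proximal parts they were 8 of 75 (10.7%) and 53 of 873 (6.07%) in the strongest group, with overlapping intervals, and 4 of 164 (2.44%) and 4 of 2646 (0.151%) in the weaker ones. Of the 26 CLAMP peaks of the strongest group that overlapped a Su(Hw) peak of the weakest group, 7 (26.9%) had one. These include the peaks at Lim1, bi, eyg, disco-r, ph-d and dac, which were named after their values were seen. Su(Hw) peaks without CLAMP overlapped the dsRNA list as well, at 78 of 3419 (2.28%, 1.83 to 2.84). For CLAMP without Su(Hw) the count was 68 of 3602 (1.89%, 1.49 to 2.39), and over all CLAMP peaks 94 of 3861 (2.43%). An overlap with that list was therefore not particular to sites with CLAMP in mock cells. No test was made, and the dsRNA libraries carry other library numbers than the mock ones (46 and 47 against 31 and 32).

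At gene ends, shared peaks and unshared peaks had similar kinds of genes nearest to them. Protein-coding genes made up 82.9% of 76 shared CLAMP summits and 86.3% of 1339 summits of CLAMP without Su(Hw). They made up 88.0% of 75 shared Su(Hw) summits and 79.4% of 591 summits of Su(Hw) without CLAMP. Small nuclear RNA genes were nearest to 8 of those 591 (1.35%) and to none of the 75 shared ones, too few summits to tell the shares apart.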
